A study of Mus musculus with 33 samples.

Results

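Long noncoding RNAs with known roles in neural or retinal cells, or in the nuclear bodies of all cells, were followed through a 35-day culture of mouse retinal progenitor cells. The 8 genes were taken by symbol from the count tables: Miat, Six3os1, Vax2os, Rmst, Malat1, Neat1, Snhg11 and Gas5. They are 8 of the 47729 genes in the deposited count tables, and all 8 were among the 18150 genes with enough reads to be tested. The cells came from the retina of C57BL/6J embryos at day 14, and bulk RNA was sequenced in 33 libraries that form 11 groups of 3. At day 0 the cells were untreated, primed towards cones with COCO protein or primed towards rods with taurine and retinoic acid. The other 8 groups were cells kept under the cone or the rod protocol and taken at days 5, 12, 21 and 35. The names cone cells and rod cells below stand for the protocol, not for a cell type. COCO, a protein released by cells, blocks signals of the BMP, Wnt and TGF-beta families, and retinoic acid is the vitamin A derivative that activates the nuclear retinoic acid receptors. The labels name no engineered allele and no untreated cells after day 0.

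A long noncoding RNA acts as RNA, often within the nucleus, by holding proteins together, by titrating them, or through the act of its transcription beside another gene. Malat1 and Neat1 are neighbouring nuclear RNAs: Malat1 gathers in nuclear speckles, which store splicing factors, and Neat1 is the scaffold on which paraspeckles assemble. Miat, also called Gomafu, is a nuclear RNA of retinal precursors and neurons, and Rmst is a neural RNA that also carries microRNA hairpins. Six3os1 and Vax2os are read from the strand opposite the homeobox genes Six3 and Vax2, which pattern the forebrain and eye field and the ventral retina. Gas5 is a host transcript whose introns hold small nucleolar RNAs, and Snhg11 is a neural gene named as such a host.

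The sequences that set these RNAs apart are shown first, from the GENCODE M21 transcripts and the RefSeq tables, both on GRCm38. Miat (chr5:112213228-112229395, minus strand) is known for tandem copies of the word TACTAAC, read with U for T in the RNA, which match the intron branch point and bind splicing factors. Its 9163-base transcript Miat-205 held 6 copies, which began between bases 4941 and 5623. Of 761 transcripts within 10% of that length, only 2 held as many, both from Miat, and 19.4% held any. The stretch from base 4931 to base 5082 has 3 of the copies, which are in capitals.
Miat-205: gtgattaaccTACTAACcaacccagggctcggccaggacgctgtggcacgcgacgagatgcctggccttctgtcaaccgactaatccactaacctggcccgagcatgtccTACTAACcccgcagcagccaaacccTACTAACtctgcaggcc

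Malat1 (chr19:5795690-5802672) and Neat1 (chr19:5824708-5845478) lie on the minus strand of the same chromosome, each as 1 exon. Instead of a poly(A) tail, mature Malat1 and the long form of Neat1 are known to end in an A-rich tract that folds back onto U-rich runs as a triplex. The windows below show that end, bases 6596 to 6696 of the 6983-base Malat1-201 and bases 20676 to 20771 of the 20771-base Neat1-201. Capitals mark the runs of at least 10 bases that both windows hold.
Malat1-201: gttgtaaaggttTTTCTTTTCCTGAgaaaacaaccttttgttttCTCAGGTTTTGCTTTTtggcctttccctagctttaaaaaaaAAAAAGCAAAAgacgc
Neat1-201: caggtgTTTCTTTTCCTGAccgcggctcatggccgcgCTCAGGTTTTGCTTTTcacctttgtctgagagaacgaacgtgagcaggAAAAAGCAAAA
Both windows held the same 3 runs in the same order, 13, 16 and 11 bases long. The A-rich run AAAAAGCAAAA occurred in 0.459% of the 134529 GENCODE transcripts of at least 200 bases. The annotated Malat1-201 runs on for 292 bases past this run, and Neat1-201 ends with it.

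Rmst (chr10:92071037-92165170, minus strand, a long intergenic RNA of 14 exon blocks) spans 2 microRNA genes of its own strand, Mir135a-2 and Mir1251. Their mature RNAs are given with the seed, bases 2 to 8, in capitals. No seed is shared among the 4. The libraries held no measure of the mature microRNAs, so the values below are for the host RNA alone.
mmu-miR-135a-5p: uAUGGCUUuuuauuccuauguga
mmu-miR-135a-2-3p: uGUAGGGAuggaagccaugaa
mmu-miR-1251-5p: aCUCUAGCugccaaaggcgcu
mmu-miR-1251-3p: cGCUUUGCucagccaguguag

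Six3os1 (chr17:85600651-85618398, minus strand, a processed transcript) and Vax2os (chr6:83692806-83712201, minus strand, antisense) had higher levels in every rod primed library, grown with retinoic acid, than in every cone primed library. Their promoter windows run from 250 bases before to 50 after the annotated start. Both strands were searched for the word AGGTCA, the short element of the nuclear receptor family that includes the retinoic acid receptors, and for its variants GGTTCA and also AGTTCA and also GGGTCA. Capitals mark the matches.
Six3os1 promoter: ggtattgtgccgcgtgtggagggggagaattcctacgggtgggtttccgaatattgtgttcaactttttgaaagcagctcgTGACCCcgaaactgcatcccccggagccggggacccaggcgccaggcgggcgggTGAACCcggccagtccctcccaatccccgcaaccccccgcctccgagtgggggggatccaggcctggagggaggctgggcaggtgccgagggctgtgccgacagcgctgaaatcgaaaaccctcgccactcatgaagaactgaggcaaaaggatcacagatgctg
Vax2os promoter: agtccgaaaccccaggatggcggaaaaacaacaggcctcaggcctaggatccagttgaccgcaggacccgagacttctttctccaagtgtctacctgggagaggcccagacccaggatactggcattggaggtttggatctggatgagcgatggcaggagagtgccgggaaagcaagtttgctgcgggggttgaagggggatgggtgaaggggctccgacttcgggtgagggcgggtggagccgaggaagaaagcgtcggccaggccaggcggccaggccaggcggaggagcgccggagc
The Six3os1 window (chr17:85618347-85618646) held the word GGGTCA and the word GGTTCA once each, both on the other strand. The Vax2os window (chr6:83712152-83712451) held none of the 4 words, and neither did the window of its second annotated start. At least 1 of the words stood in 43.7% of the 32851 promoter windows of that length, so a match or its absence is a description of these letters only.

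Counts over genes ran from 7511837 to 19166442 per library, and every member was counted in every library, from 6 reads of Rmst to 541944 reads of Malat1. Levels are CPM, the reads of a gene scaled to a common library size by TMM, and a tested gene is called at an edgeR quasi-likelihood adjusted p under 0.05 over all genes. The labels do not say that replicates were separate cultures or animals, so the p-values measure the spread between these samples, which may be technical. The labels name no batch. The 12 eye field and retinal progenitor genes summed to 822 to 1554 CPM in every library. Photoreceptor genes did not keep their level, which summed to 969 to 1294 CPM in untreated cells, 32.1 to 58.8 at cone day 35 and 26.8 to 31.6 at rod day 35, with 1 to 5 of 12 genes at 0 in the cone and 4 to 5 in the rod libraries. Rod day 12 replicate 2 stood apart from its group, with photoreceptor genes at 1074 CPM against 79.0 and 157 in the other 2 libraries and general neuron genes at 1260 against 523 and 645. Cone day 21 replicate 1 had the lowest share of uniquely placed reads outside genes of all libraries, 31.9%. In bulk RNA, fewer cells of a type and less RNA per cell cannot be told apart.

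Time in culture moved most of the members, and the protocols separated fewer. Against the cone primed cells, 3, 6, 6 and 6 of the 8 members were called at cone days 5, 12, 21 and 35, where 22.3%, 48.4%, 52.6% and 57.7% of all genes were called. Against the rod primed cells, the counts were again 3, 6, 6 and 6, beside 17.5%, 42.4%, 50.8% and 55.6% of all genes. All comparisons with day 0 of a protocol share its 3 primed libraries. Between cone and rod cells of the same day, 1, 3, 3, 1 and 4 members were called at days 0, 5, 12, 21 and 35, beside 7.27%, 9.28%, 10.1%, 9.00% and 12.3% of all genes. Cone priming gave 0 called members and 0% called genes against untreated cells by edgeR at an adjusted p under 0.05; at an unadjusted p under 0.05 it also gave 0 members, and DESeq2 called 0 of the 8. Rod priming gave 1 called member, beside 10.3% of genes. For 3 members, Miat, Six3os1 and Neat1, the difference between protocols depended on the day, in an F test on 4 degrees of freedom that called 9.22% of genes. With limma on the deposited TPM, 0 members were called in each cone over rod comparison. Of the 18150 genes, 27, 192, 131, 41 and 34 were called there at the 5 days in turn, so few member calls could be looked for. Over primed cells, 8 cone and 4 rod member changes were called. Of all genes, 1275, 938, 871 and 963 were called at cone days 5, 12, 21 and 35, and 831, 781, 842 and 710 at those rod days. That fit used log2(TPM + 1), which shrinks changes at low TPM. The median TPM was below 1 for Miat, Rmst, Neat1, Snhg11 and Gas5, so a missing call there says little. Counted by day in the edgeR fit, 21 of 32 member changes were called under each protocol, beside 45.3% of all gene changes for cone and 41.6% for rod cells. The 3 cone libraries did not overlap the 3 rod libraries for 5, 5, 4, 1 and 5 members at the 5 days in turn, beside 29.5%, 32.8%, 22.3%, 24.7% and 27.9% of all genes.

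**Figure D1:**
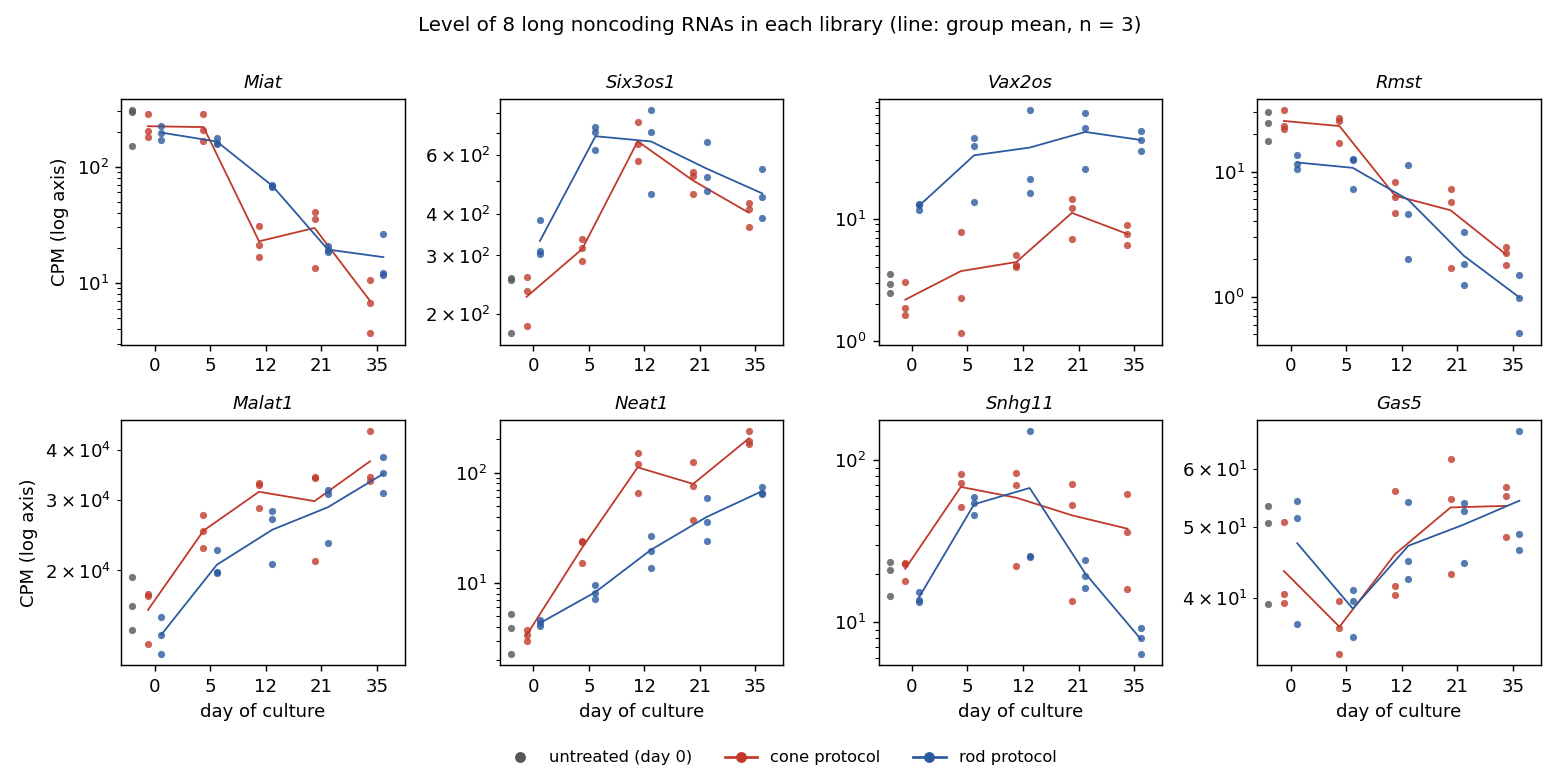
CPM of each member on a log axis against the day of culture; each point is 1 library, grey for untreated, red for the cone and blue for the rod protocol, and lines join group means (n = 3). Miat and Rmst fall, Malat1 and Neat1 rise, Vax2os lies higher in every rod library than in every cone library of the same day, and Gas5 stays between 33.6 and 67.5 CPM.

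Among the RNAs of nuclear bodies, Malat1 was by far the most abundant member and rose under both protocols. It held 1.38% to 2.20% of the gene counts in untreated and cone primed libraries and 2.96% to 3.73% at cone day 35. The rod primed libraries had 12354, 15329 and 13756 CPM, and the rod day 35 libraries 38573, 31229 and 34986 CPM. The cone primed libraries had 17430, 13080 and 17280 CPM, and the cone day 35 libraries 33555, 44652 and 34376 CPM. Every day 35 library lay above every day 0 library. The rise to day 35 was 1.24 ± 0.19 (log2 fold change ± SE, adjusted p = 2.78e-06, edgeR) under the cone and 1.34 ± 0.19 (adjusted p = 1.09e-06) under the rod protocol. It had begun by day 5, at 0.66 ± 0.19 (edgeR adjusted p = 0.0116) in cone and 0.58 ± 0.19 (adjusted p = 0.0308) in rod cells. These early calls were lost without cone primed replicate 2 (adjusted p = 0.0865), and without rod primed replicate 1 or 3 or rod day 5 replicate 2 or 3 (adjusted p up to 0.124). No difference between cone and rod cells was called at any day. The largest was 0.32 ± 0.19 at day 12, with a 95% interval of -0.05 to 0.68 (edgeR adjusted p = 0.333). At days 5 and 12 every cone library still lay above every rod library, by a narrow margin.

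Neat1 had the largest change of the 8 members from primed cells to day 35, under each protocol, and was higher in cone than rod cells at days 5, 12 and 35. It was a rare RNA at day 0, at 5.24, 2.27 and 3.94 CPM in untreated cells, 3.78, 2.99 and 3.35 in cone primed and 4.61, 4.33 and 4.04 in rod primed cells. The cone libraries of day 5 then had 24.1, 15.1 and 23.4 CPM, those of day 12 had 150, 65.3 and 119, those of day 21 had 37.1, 76.3 and 124, and those of day 35 had 193, 238 and 181. The rod libraries of day 5 had 7.19, 9.58 and 8.05 CPM, those of day 12 had 26.5, 13.8 and 19.7, those of day 21 had 23.8, 59.2 and 35.8, and those of day 35 had 65.3, 74.6 and 63.8. The lowest cone library lay above the highest rod library at days 5, 12 and 35, and the groups overlapped at day 21. Over the primed cells the level was 60.8 times higher at cone day 35 (log2 5.93 ± 0.43, edgeR adjusted p = 8.48e-12) and 15.7 times higher at rod day 35 (3.97 ± 0.41, adjusted p = 5.97e-09). At day 5 the cone rise was called (2.64 ± 0.41, edgeR adjusted p = 5.35e-05). The rod change of 0.95 ± 0.42 at day 5 was not called in the fit of all libraries (edgeR adjusted p = 0.115) but was in a fit of the 2 groups compared (adjusted p = 0.00873), and every rod day 5 library lay above every rod primed library.

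From day 0 through days 5, 12, 21 and 35, the log2 fold change of Neat1 in cone over rod cells was -0.37 ± 0.46, 1.33 ± 0.36, 2.48 ± 0.35, 1.00 ± 0.34 and 1.58 ± 0.34. It was called at days 5, 12 and 35 (edgeR adjusted p = 0.0192, 2.74e-05 and 0.00201) and not at day 0 (adjusted p = 0.726). At day 21 the call depended on the analysis: it was missed in the edgeR fit (adjusted p = 0.0606) and made with no filter on low counts (adjusted p = 0.0465) and by DESeq2 (adjusted p = 0.0450). Without rod day 12 replicate 2 the day 12 difference was 2.27 (edgeR adjusted p = 0.000410). The day 5 call was lost when cone or rod day 5 replicate 1 or 3 was left out (adjusted p up to 0.0924). Without cone day 21 replicate 1 the day 21 difference was 1.31 (edgeR adjusted p = 0.0121), and over all libraries left out in turn it ran from 0.52 to 1.41. The change of this difference with day was itself called (F test, edgeR adjusted p = 0.0180). Mesenchymal genes rose beside Neat1, from a summed level of 4.60 to 29.5 CPM over the day 0 libraries. Their sum was 430 to 567 CPM at cone day 12 against 108 to 215 at rod day 12. At day 21, where the Neat1 groups overlapped, it was 813 to 962 in cone against 265 to 522 in rod cells. By day 35 it was 731 to 4132 in cone against 383 to 931 in rod cells. Of the 3 cone day 35 libraries, replicate 2 had the lowest mesenchymal level, 731 CPM, and the highest Neat1. Microglial genes, at 1.47 to 4.49 CPM over day 0, reached 23.6 to 75.5 CPM at cone day 35 and 4.33 to 7.60 at rod day 35. The part of these cells in the Neat1 values was not tested.

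The mRNAs of proteins found in these nuclear bodies were lower at day 35 in most cases, and the proteins themselves were not measured. Of 12 genes of paraspeckle proteins, all tested, 12 fell and 0 rose between primed and day 35 cone cells, and 11 fell under the rod protocol, where 57.7% and 55.6% of all genes were called in either direction. Their median changes were -0.56 and -0.55, beside medians of 0.03 and 0.04 over all genes. Sfpq, a core paraspeckle protein that binds Neat1, fell by 0.91 ± 0.07 under the cone and by 0.79 ± 0.07 under the rod protocol, and its partner Pspc1 fell by 0.90 ± 0.09 and 0.68 ± 0.09 (all 4 edgeR adjusted p under 0.05). Cone over rod, 2 of the 12 were called at day 35, both lower, among them Cpsf6, a factor of mRNA 3′ end processing, at -0.31 ± 0.10 (edgeR adjusted p = 0.0343). The share called over all genes was 12.3%. Of 11 genes of nuclear speckles and splicing, 9 fell and 0 rose under the cone protocol and 7 fell and 0 rose under the rod protocol, the latter close to the share called over all genes. Among these Srsf1, a splicing factor that binds exons, fell by 1.02 ± 0.07 and 0.92 ± 0.07, with edgeR adjusted p of 2.90e-12 and 3.25e-11. The median of this list was -0.71 in cone and -0.60 in rod cells.

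**Figure D2:**
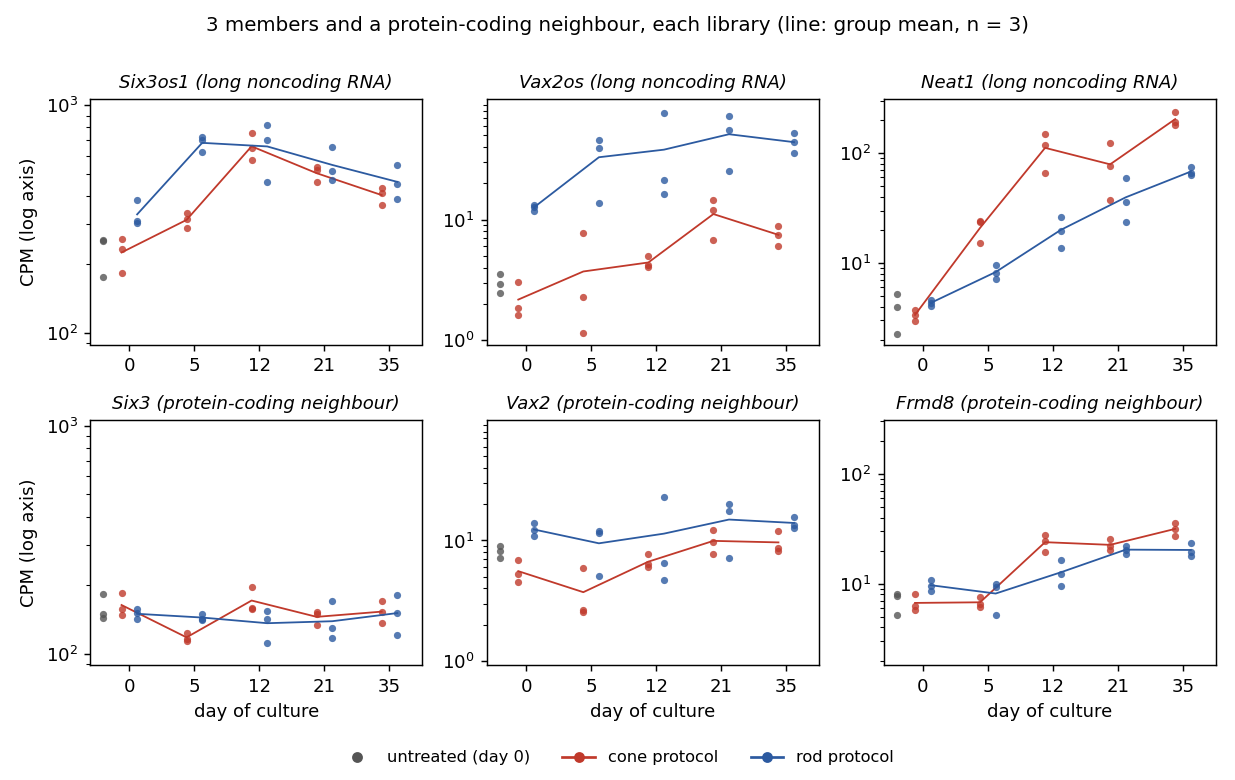
CPM on log axes by day for Six3os1, Vax2os and Neat1 (upper row) and for Six3, Vax2 and Frmd8 (lower row, the same axis limits per column); points are libraries and lines are group means (n = 3). Six3 group means stay between 118 and 171 CPM while Six3os1 spans 226 to 683, and Frmd8 rises beside Neat1 from 6.69 to 31.6 CPM under the cone protocol.

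The gene closest to Neat1 also rose. Frmd8, a protein-coding gene on the same strand 4224 bases upstream of Neat1, had 5.79, 8.00 and 6.29 CPM in cone primed and 35.7, 31.6 and 27.4 CPM at cone day 35. The change was 2.23 ± 0.22 in cone and 1.06 ± 0.22 in rod cells (edgeR adjusted p = 2.90e-09 and 0.000170). Cone exceeded rod at day 12 by 0.91 ± 0.21 (edgeR adjusted p = 0.00505) and at day 35 by 0.64 ± 0.21 (adjusted p = 0.0427). Over the 11 group means, the Pearson r of log2 CPM between Neat1 and Frmd8 was 0.911, a description of groups that share libraries and time. The 3 genes whose group means ran most like those of Neat1, among 11917 compared, were Npvf (0.989), Mvp (0.989), the major vault protein, and Cd248 (0.986), a surface protein of stromal cells and pericytes. For Malat1 they were Slit3 (0.981), Nid1 (0.980), a basement membrane protein, and Furin (0.980), a proprotein convertase.

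Of the neural RNAs, Miat fell the most, and it fell sooner under the cone protocol. The day 0 libraries had 297, 151 and 305 CPM untreated, 286, 203 and 179 cone primed, and 196, 169 and 223 rod primed. The level was still 207, 166 and 283 CPM at cone day 5 and 156, 159 and 177 at rod day 5. At day 12 it was 21.1, 30.5 and 16.6 CPM in cone cells but 67.3, 68.2 and 69.6 in rod cells. All day 5 libraries lay above all day 12 libraries, and at day 12 each cone library lay below each rod library. By day 21 the cone libraries had 13.4, 40.5 and 35.1 CPM and the rod libraries 19.0, 20.7 and 18.3, which overlap. At day 35 they had 3.67, 10.6 and 6.70 CPM in cone and 26.2, 11.6 and 12.1 in rod cells, again with every cone library below every rod library.

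Against primed cells, Miat was 9.77 times lower at cone day 12 (log2 -3.29 ± 0.37, edgeR adjusted p = 3.74e-08) and 2.87 times lower at rod day 12 (-1.52 ± 0.34, adjusted p = 0.000787). By day 35 it was 31.9 times lower in cone (-4.99 ± 0.41, edgeR adjusted p = 6.40e-11) and 11.9 times lower in rod cells (-3.57 ± 0.37, adjusted p = 9.69e-09). At day 5 neither change was called, at -0.02 ± 0.33 in cone and -0.26 ± 0.33 in rod cells (edgeR adjusted p = 0.971 and 0.642), and with limma on TPM the cone day 5 change of Miat was 0.84 (adjusted p = 0.0135). The cone minus rod difference was -1.58 ± 0.35 at day 12 (edgeR adjusted p = 0.00353) and -1.25 ± 0.38 at day 35 (adjusted p = 0.0311), with 0.63 ± 0.35 between them at day 21 (adjusted p = 0.297). The day 35 call was lost without cone day 35 replicate 1 or 3 or rod day 35 replicate 1, with differences from -1.68 to -0.78 and adjusted p up to 0.258, and in a fit of the compared libraries only (adjusted p = 0.136). The day 12 difference was -1.59 without rod day 12 replicate 2 (edgeR adjusted p = 0.00869). The change of the difference with day was called (F test, edgeR adjusted p = 0.00662).

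**Figure D3:**
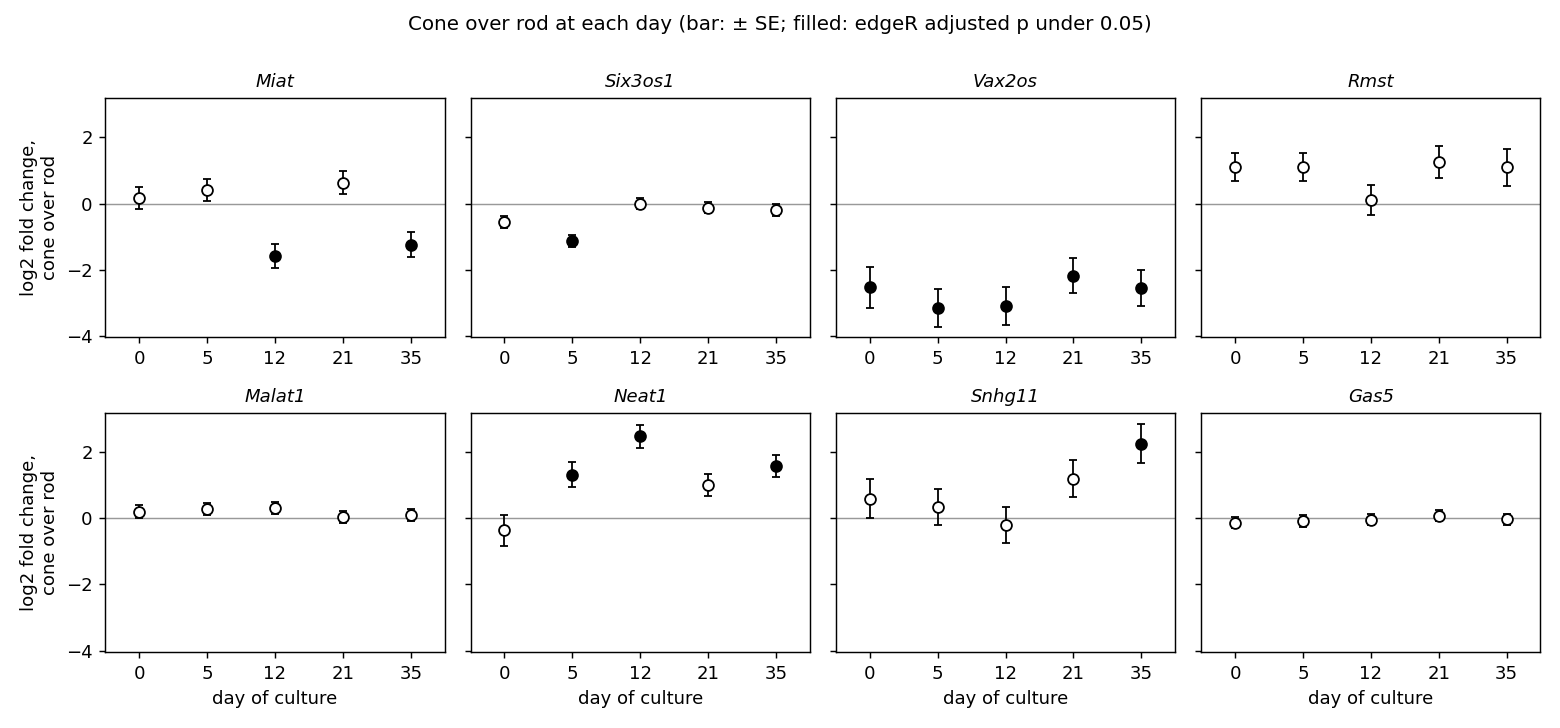
Log2 fold change of cone over rod at each of 5 days for the 8 members, with bars of ± SE from the edgeR fit; filled points passed an adjusted p under 0.05. Vax2os is below 0 at all 5 days, Neat1 is above 0 from day 5, Miat is called lower at days 12 and 35, and Malat1, Rmst and Gas5 have no filled point.

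Rmst also fell under both protocols, from a lower level than Miat. It had 31.0, 23.4 and 22.1 CPM in cone primed cells and 1.79, 2.49 and 2.26 at cone day 35, and 10.4, 11.6 and 13.6 CPM in rod primed cells and 0.510, 0.970 and 1.48 at rod day 35. The day 35 libraries lay below all primed libraries. The change was -3.54 ± 0.48 in cone and -3.54 ± 0.52 in rod cells, 11.6 times lower in each (edgeR adjusted p = 5.51e-07 and 2.27e-06). At day 12 the cone fall was called (-1.98 ± 0.44, edgeR adjusted p = 0.000505) and the rod change was not (-0.99 ± 0.44, adjusted p = 0.0685). Rod day 12 replicate 2 had 11.3 CPM against 2.00 and 4.61, and without it the rod change was -1.88 (adjusted p = 0.00128). Rod priming lay below untreated cells in all libraries, at -1.01 ± 0.42, and cone above rod primed cells by 1.10 ± 0.42, but neither passed in the fit of all libraries (edgeR adjusted p = 0.134 and 0.123). Both passed in a fit of only the 2 groups compared (edgeR adjusted p = 0.00969 and 0.00449). At day 21 cone exceeded rod by 1.25 ± 0.49 (edgeR adjusted p = 0.110), and without cone day 21 replicate 1 by 1.59 (adjusted p = 0.0430). Every cone library also lay above every rod library at days 5 and 35. The differences were 1.10 ± 0.42 and 1.10 ± 0.57 and were not called (edgeR adjusted p = 0.102 and 0.237). The day 5 difference passed in a fit of the 2 groups compared (edgeR adjusted p = 0.00806). At day 12 the groups overlapped, at 0.11 ± 0.44 (edgeR adjusted p = 0.923).

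Neuronal genes fell in the same libraries. The summed level of 10 general neuron genes was 2283 to 2884 CPM in untreated cells, 380 to 892 at cone day 12, 523 to 1260 at rod day 12, 212 to 409 at cone day 35 and 196 to 253 at rod day 35. All 10 fell by day 35 under both protocols, where 57.7% and 55.6% of all genes were called in either direction. At day 12 the cone and rod ranges of this sum overlapped, and 0 of its genes were called between the protocols, while Miat was called. The share over all genes was 10.1%. Between the rod day 12 libraries this sum ran from 523 to 1260 CPM, and Miat only from 67.3 to 69.6. At day 35 the ranges of the sum overlapped again, with medians of 297 CPM in cone and 224 in rod cells. Miat was lower there in every cone library than in every rod library. The part of neuron number in the Miat and Rmst values was not tested. Over the 11 group means Miat and Rmst ran alike (r = 0.897), and Miat ran opposite to Neat1 (r = -0.925). The genes most like Miat were the transcription factor Sp4 (0.990), the telomere protein gene Pot1a (0.988) and the chromatin organiser Satb1 (0.987). Among the 3 most like Rmst were the arginine methyltransferase Prmt8 (0.996) and Frmd5 (0.994).

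**Figure D4:**
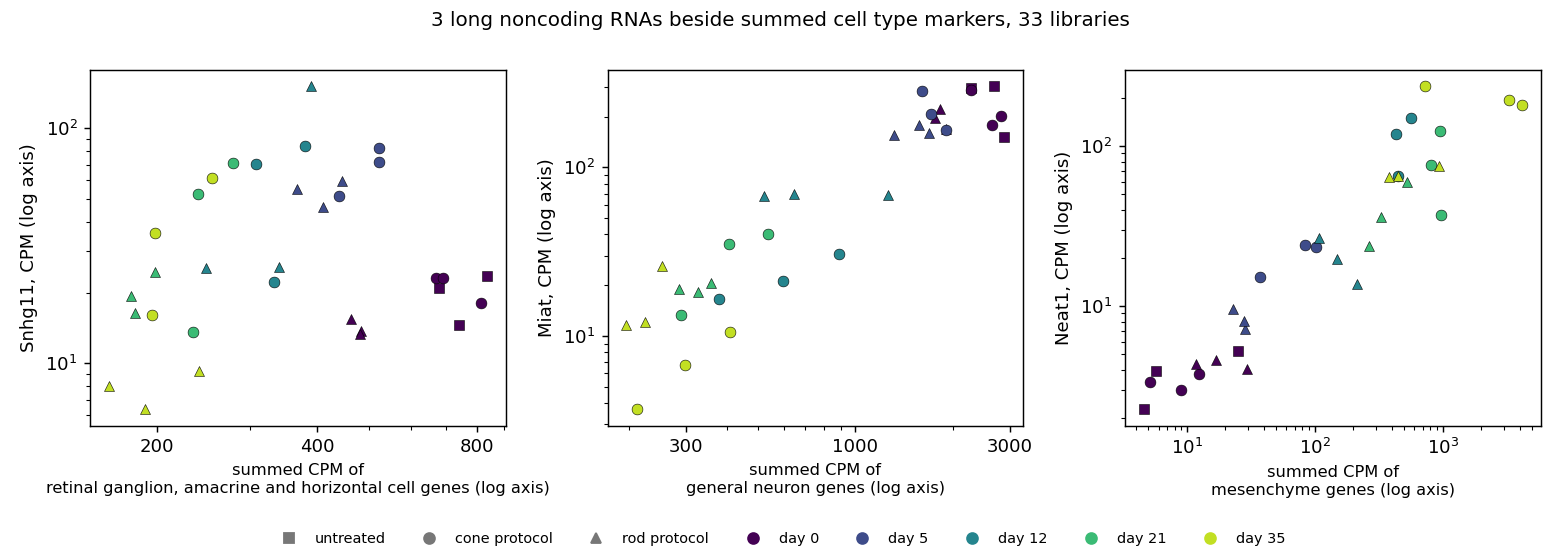
CPM of Snhg11, Miat and Neat1 in each of 33 libraries against the summed CPM of 13 retinal ganglion, amacrine and horizontal cell genes, 10 general neuron genes and 10 mesenchymal genes, all on log axes; shape gives the protocol and colour the day. From day 0 to day 35 Miat falls and Neat1 rises as their marker sums do. At day 35 Miat is lower in every cone than in every rod library, where the general neuron sums overlap. The highest Snhg11 point, 152 CPM, is rod day 12 replicate 2.

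The genes of proteins known to bind these RNAs split. Of 7 such genes, 3 rose and 4 fell in cone cells by day 35, and 1 rose and 4 fell in rod cells. Over all genes 57.7% and 55.6% were called in either direction. Qk, an RNA-binding protein that reads ACTAAC words like those in Miat, rose by 1.07 ± 0.16 in cone and 0.84 ± 0.16 in rod cells (edgeR adjusted p = 1.89e-06 and 5.76e-05). Celf3, a neuronal splicing regulator found with Miat, fell by 4.83 ± 0.67 and 5.44 ± 0.71 (edgeR adjusted p = 6.70e-07 and 3.19e-07). Ptbp2, the neuronal polypyrimidine tract binding protein, fell by 1.62 ± 0.15 and 1.03 ± 0.15, with edgeR adjusted p of 6.64e-10 and 1.54e-06. Sox2, the progenitor transcription factor that Rmst RNA is known to bind, rose by 0.56 ± 0.20 in cone cells (edgeR adjusted p = 0.0212) and had 0.15 ± 0.20 in rod cells (adjusted p = 0.542).

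Six3os1 rose under both protocols in the counts, and at day 5 it was higher in rod than in cone cells. It had 235, 258 and 184 CPM in cone primed and 310, 303 and 382 CPM in rod primed cells. At day 5 the cone libraries had 289, 335 and 316 CPM and the rod libraries 727, 621 and 702. The cone libraries reached 648, 576 and 755 CPM at day 12, beside 816, 459 and 701 in rod cells. Cone and rod libraries were apart at days 0 and 5 and overlapped from day 12 on. At day 35 the libraries had 412, 431 and 366 CPM in cone and 546, 387 and 449 in rod cells.

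The rise of Six3os1 over primed cells was called at rod day 5 (1.04 ± 0.18, edgeR adjusted p = 0.000238) and at cone day 12 (1.55 ± 0.18, adjusted p = 9.89e-08). At cone day 5 it was 0.47 ± 0.18, just short of the threshold (edgeR adjusted p = 0.0586). That change passed with other size factors (adjusted p = 0.0427), by DESeq2 (0.0297), in a fit of the 2 groups compared (0.0258) and without mitochondrial and ribosomal RNA genes (0.0395), so no later onset in cone cells was shown. At cone day 35 the rise was 0.84 ± 0.18 (edgeR adjusted p = 0.000287). At rod day 35 a rise of 0.47 ± 0.18 was called (edgeR adjusted p = 0.0278) but lost without rod primed replicate 1 or 2 or rod day 35 replicate 1 or 3 (adjusted p up to 0.213). On TPM with limma the direction of Six3os1 turned, with no call, at cone day 35 (-0.89) and at rod days 12, 21 and 35 (-0.28, -0.82 and -0.52). The cone minus rod difference was -0.56 ± 0.18 at day 0 (edgeR adjusted p = 0.0605), -1.12 ± 0.18 at day 5 (adjusted p = 0.000183) and 0.00 ± 0.18 at day 12 (adjusted p = 0.998), where the 95% interval was -0.35 to 0.35. The day 0 difference passed by DESeq2 (adjusted p = 0.0293) and in a fit of the 2 groups compared (0.0361). This change with day was called (F test, edgeR adjusted p = 0.0196), and lost without cone day 5 replicate 1 or 3 or rod day 5 replicate 1 (adjusted p up to 0.0745). Rod primed cells were above untreated cells by 0.54 ± 0.18, just short of the threshold (edgeR adjusted p = 0.0567), and this passed with other size factors (0.0437), by DESeq2 (0.0230), in a fit of the 2 groups compared (0.0448) and without mitochondrial and ribosomal RNA genes (0.0377).

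Genes of Müller glia, the supporting glia of the retina, moved in the same libraries as Six3os1. Of 10 such genes, 8 were higher and 1 lower in rod primed than untreated cells, and 1 was higher and 7 lower in cone than rod primed cells. The shares over all genes were 10.3% and 7.27%. Over cone primed cells 6 were higher and 0 lower at day 5, and 8 higher and 1 lower at each later day. At these days in turn, 22.3%, 48.4%, 52.6% and 57.7% of all genes were called. Their summed level was 964 to 1231 CPM in cone primed and 2050 to 2480 in rod primed cells, 1792 to 2172 at cone day 5 and 2666 to 3151 at rod day 5. It went on to 6614 to 7073 CPM at cone day 35 and 6199 to 8655 at rod day 35, where Six3os1 was below its day 12 mean in both protocols. At most 1 of the 10 was at 0 in any library. Cell cycle genes also set the protocols apart at day 5: 9 of 10 were lower and 0 higher in cone than rod cells, with sums of 598 to 799 and 1477 to 1663 CPM, and 0 were called between protocols at day 12. Between protocols, 9.28% and 10.1% of all genes were called at days 5 and 12. The part of glial or dividing cells in the Six3os1 values was not tested.

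Six3, the homeobox gene on the opposite strand, did not follow. Its gene overlaps Six3os1 by 4791 bases, with 106 bases of exon in common. Its group means ran from 118 CPM at cone day 5 to 171 CPM at cone day 12, and its r with Six3os1 over the 11 group means was -0.12. Only cone day 5 over cone primed was called (-0.47 ± 0.15, edgeR adjusted p = 0.0204), with no call between protocols at any day. The strand setting of the counts is not given in the sources used here, so reads of the shared 106 bases cannot be assigned with certainty. Of 12 eye field and progenitor genes, 3 rose and 6 fell in cone cells by day 35, and 3 rose and 4 fell in rod cells. The shares called over all genes were 57.7% and 55.6%. The genes most like Six3os1 were the phosphatase gene Phlpp1 (r = 0.960), Rasd1 (0.952), a Ras-like gene induced by hormones, and B3galt1 (0.951).

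Vax2os was the member that set the protocols apart at every day, beginning with priming. Untreated cells had 2.94, 2.47 and 3.53 CPM, cone primed cells 1.64, 1.86 and 3.04, and rod primed cells 13.3, 11.8 and 12.8. Of the rod libraries, those of day 5 had 39.4, 13.7 and 45.8 CPM, those of day 12 had 16.4, 76.7 and 21.2, those of day 21 had 55.1, 25.5 and 72.8, and those of day 35 had 36.0, 43.9 and 51.9. Of the cone libraries, those of day 5 had 7.75, 1.16 and 2.27 CPM, those of day 12 had 4.20, 5.05 and 4.02, those of day 21 had 6.82, 14.5 and 12.1, and those of day 35 had 8.88, 6.10 and 7.51. At each of the 5 days the lowest rod library lay above the highest cone library. Between the libraries of a rod group the level still varied widely, up to 76.7 against 16.4 CPM at day 12.

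Cone over rod, the Vax2os difference was -2.53 ± 0.62, -3.16 ± 0.56, -3.10 ± 0.57, -2.18 ± 0.53 and -2.55 ± 0.54 at days 0, 5, 12, 21 and 35, all called (edgeR adjusted p = 0.0124, 0.000560, 0.000546, 0.00809 and 0.00196). In linear terms it was 4.54 to 8.92 times lower in cone cells. The day 0 call was lost without cone primed replicate 1 (adjusted p = 0.0582) and the day 21 call without rod day 21 replicate 3 (adjusted p = 0.0549). Without cone day 21 replicate 1 the day 21 difference was -1.97 (edgeR adjusted p = 0.0469). At day 12 the difference was -2.08 without rod day 12 replicate 2 (edgeR adjusted p = 0.00878), and the call was lost in a fit of the day 12 libraries alone (edgeR adjusted p = 0.0635). No change of the difference with day was detected (F test, edgeR adjusted p = 0.794). Rod primed over untreated was 2.08 ± 0.59 (edgeR adjusted p = 0.0231), the single member called there; the call was lost without any 1 of the untreated libraries or without rod primed replicate 1 or 3 (adjusted p up to 0.0974).

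Over time Vax2os also rose within each protocol. The rod rise was 2.02 ± 0.53 at day 21 and 1.80 ± 0.52 at day 35 (edgeR adjusted p = 0.00231 and 0.00490). The cone rise was 2.36 ± 0.62 at day 21 and 1.78 ± 0.63 at day 35 (edgeR adjusted p = 0.00228 and 0.0178), the latter lost without cone primed replicate 1 or 2 (adjusted p up to 0.0662). On TPM with limma, Vax2os at cone day 35 (-0.16) and rod day 21 (-0.092) turned direction with no call. The rod day 12 rise of 1.59 ± 0.52 (edgeR adjusted p = 0.0156) was lost without rod primed replicate 2 and in a fit of the 2 groups compared (adjusted p = 0.0781), and without rod day 12 replicate 2 it was 0.54 (adjusted p = 0.381). In the cone primed libraries the counts behind these values were 13, 23 and 29 reads, so the cone folds rest on few reads.

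Vax2, the ventral retina homeobox gene on the other strand, overlaps the Vax2os gene by 938 bases and shares no exon bases with it. Its group means were 3.73 to 14.9 CPM, its r with Vax2os over the 11 groups was 0.781, and it was called in no comparison. Rod day 12 replicate 2 was the highest library of its group for both, at 23.0 CPM of Vax2. Genes known to respond to retinoic acid were higher in the same rod libraries: of 8 tested, 6 were lower in cone than rod primed cells and 0 were higher, with 5 lower at each later day. From day 0 to day 35, 7.27%, 9.28%, 10.1%, 9.00% and 12.3% of all genes were called. Rarb, the retinoic acid receptor gene that retinoic acid itself induces, had at most 9 reads in a cone primed library and was 7.24 ± 0.32 lower on the log2 scale in cone than rod primed cells and 2.01 ± 0.21 lower at day 35 (edgeR adjusted p = 1.30e-14 and 3.64e-07). Cd207, the nearest protein-coding gene at lower coordinates, 14949 bases from Vax2os on its strand, had at most 3 reads in any untreated, primed or cone library and 2 to 29 reads in each rod library from day 5 on, too few for a level. The part of retinoic acid in the Vax2os values was not tested. The genes most like Vax2os in group means were Camk2n1 (0.974), an inhibitor of CaM kinase II, Galnt3 (0.972), a glycosyltransferase, and Pou3f4 (0.968), a neural POU transcription factor.

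Snhg11 rose early under both protocols and varied widely between replicates. It had 23.0, 18.1 and 23.2 CPM in cone primed and 13.7, 13.3 and 15.4 CPM in rod primed cells, then 82.2, 72.1 and 51.4 at cone day 5 and 54.9, 46.3 and 59.6 at rod day 5. Both day 5 groups lay above all day 0 libraries. At day 12 the cone libraries had 70.6, 83.7 and 22.2 CPM and the rod libraries 25.3, 152 and 25.7. At day 21 they had 13.6, 71.0 and 52.8 CPM in cone and 16.4, 24.4 and 19.4 in rod cells. At day 35 the cone libraries had 16.0, 61.6 and 35.9 CPM and the rod libraries 6.37, 9.30 and 8.01, with no overlap.

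The day 5 rise of Snhg11 was 1.68 ± 0.57 in cone and 1.92 ± 0.58 in rod cells (edgeR adjusted p = 0.0340 and 0.0236). The cone call was lost without any 1 of the cone primed libraries or cone day 5 replicate 1 or 2 (adjusted p up to 0.126), and the rod call without any 1 of the rod primed libraries or rod day 5 replicate 3 (adjusted p up to 0.0779). The cone day 12 rise of 1.46 ± 0.57 (edgeR adjusted p = 0.0361) was lost without the same cone primed libraries or cone day 12 replicate 1 or 2 (adjusted p up to 0.149). The rod day 12 rise of 2.25 ± 0.59 (edgeR adjusted p = 0.00306) was 0.81 without rod day 12 replicate 2 (adjusted p = 0.193), and the call was lost in a fit of the 2 groups compared (adjusted p = 0.0556). The cone day 21 change was 1.11 ± 0.57 (edgeR adjusted p = 0.103), and 1.51 without cone day 21 replicate 1 (adjusted p = 0.0280). By rod day 35 every library lay below every rod primed library, at -0.84 ± 0.61. This was not called in the fit of all libraries (edgeR adjusted p = 0.247) but was in a fit of the 2 groups compared (adjusted p = 0.00444). Cone exceeded rod at day 35 by 2.26 ± 0.60, or 4.79 times (edgeR adjusted p = 0.0124), and the call was lost without cone day 35 replicate 2 or rod day 35 replicate 1 (differences from 1.70 to 2.63, adjusted p up to 0.0873). General neuron genes were also higher in cone than rod cells at day 35: 5 of 10 were called higher and 0 lower, with a median of 1.56 beside 0.02 over all genes. The share called over all genes was 12.3%. The genes most like Snhg11 were the neuronal calcium sensor Hpcal4 (r = 0.974), the adhesion gene Negr1 (0.915) and Osbp2 (0.905). GENCODE M21 places Snhg11 at chr2:158375638-158386145 on the plus strand and lists it as protein coding.

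Gas5 (chr1:161034422-161038539, plus strand) was the steadiest of the 8 members. Its lowest group mean was 36.6 ± 3.05 CPM (SD, n = 3) at cone day 5 and its highest 54.3 ± 11.5 CPM at rod day 35, and neighbouring groups overlapped all along this order. It was called in none of the 16 comparisons. The largest change among these comparisons was -0.30 ± 0.17 at rod day 5 over rod primed, with a 95% interval of -0.63 to 0.03 (edgeR adjusted p = 0.228). Day 5 was not compared with later days, and there the libraries were apart. Cone libraries had 33.6 to 39.7 CPM at day 5 and 48.5 to 56.8 at day 35. Rod libraries had 35.5 to 41.0 CPM at day 5 and 46.5 to 67.5 at day 35. Gas5 RNA is known to be degraded by nonsense-mediated decay when it is translated. Of 8 genes of that pathway, 4 fell and 0 rose in cone cells by day 35, and 2 fell and 2 rose in rod cells. Over all genes 57.7% and 55.6% were called, so this list had no higher share. Upf3b, which links decay to exon junctions, fell by 1.02 ± 0.14 and 0.92 ± 0.14 (edgeR adjusted p = 5.21e-07 and 3.11e-06). Of 13 other snoRNA host RNAs tested, 1 rose and 2 fell in cone cells by day 35, and 2 rose and 1 fell in rod cells. These shares were below those of all genes. Snhg18 rose by 3.86 ± 0.36 and 2.92 ± 0.34 (edgeR adjusted p = 9.12e-10 and 6.19e-08). Snhg14, an imprinted host RNA of neurons, fell by 2.39 ± 0.33 and 1.97 ± 0.34, with edgeR adjusted p of 7.19e-07 and 1.93e-05. The genes most like Gas5 were Cpt1a (r = 0.959), the enzyme that admits fatty acids to mitochondria, Mfsd5 (0.953) and Hsd17b7 (0.950).

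Other long noncoding RNAs of neural or nuclear kind gave a background for the 8. Of 16 tested, 0 rose and 7 fell in cone cells by day 35, and 1 rose and 4 fell in rod cells. These shares were below those of all genes, of which 57.7% and 55.6% were called. Mir124a-1hg, a host of the neuronal microRNA miR-124, fell by 3.87 ± 0.78 in cone and 5.82 ± 0.88 in rod cells (edgeR adjusted p = 0.000132 and 3.13e-06). Peg13, an imprinted brain RNA, fell by 1.77 ± 0.25 and 1.87 ± 0.25 (edgeR adjusted p = 8.73e-07 and 5.99e-07). At day 0, Meg3 and Rian, both of 1 imprinted cluster, were higher in cone than rod primed cells, by 1.48 ± 0.44 and 1.20 ± 0.29 (edgeR adjusted p = 0.0373 and 0.0103). At day 35 the differences were 0.79 ± 0.43 and 0.06 ± 0.29 and were not called (edgeR adjusted p = 0.268 and 0.927).

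**Figure D5:**
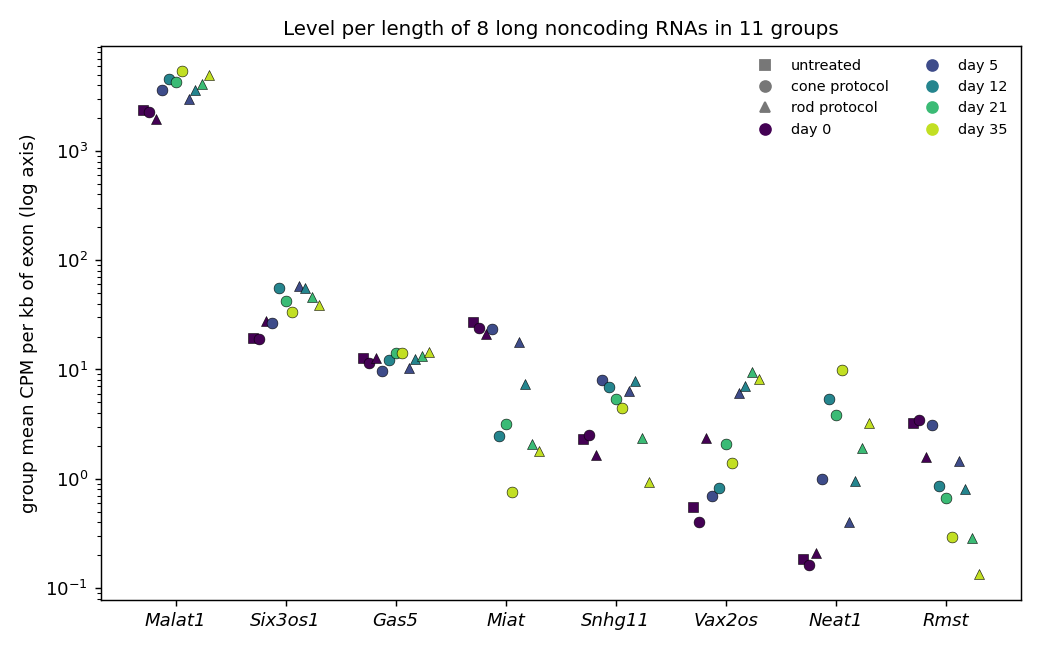
Group mean CPM per kilobase of GENCODE M21 exon (log axis) for the 8 members in 11 groups; squares are untreated, circles cone and triangles rod groups, and colour gives the day. Malat1 lies above all others, between 1978 and 5374 CPM per kb, and Neat1 and Rmst reach the lowest levels, 0.162 and 0.133.

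Set per kilobase of annotated exon, which allows levels to be compared between genes, Malat1 stood at 1978 to 5374 CPM per kb in the 11 groups. Six3os1 came next from day 5 on, at 26.4 to 57.5 CPM per kb. Miat was second at day 0 in untreated and cone primed cells, at 27.0 and 24.0 CPM per kb, and was down to 0.751 at cone day 35 and 1.79 at rod day 35. Neat1 went from last in untreated cells, at 0.184 CPM per kb, to 9.81 at cone day 35, where only Malat1, Six3os1 and Gas5 were above it. The order at rod day 35 differed: Vax2os had 8.13 CPM per kb there and 1.39 at cone day 35, and Neat1 had 3.27. Neat1 is made as a short and a long RNA from 1 start, and counts over the gene cannot separate them, so its level per kb is an average over the long form. Malat1 and Neat1 group means ran together over the 11 groups (r = 0.961 on log2 CPM), although their folds to cone day 35 were 2.36 and 60.8.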

How the data were processed

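Per the submitters' processing notes, the authors used HISAT2, StringTie and HTSeq with the GRCm38 build; versions and strand settings are not given in the sources used here. The authors deposited whole read counts per gene for each library, and separate tables with TPM, FPKM and coverage values per gene. The coverage and FPKM columns were not tested. The 8 members, the gene lists and the tests were chosen with earlier results of these data known.

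Counts were scaled by TMM, filtered (minimum count 10 by group) and fitted over all 33 libraries with edgeR 4.0.16 (quasi-likelihood) in R 4.3.3, without a replicate block, and p-values were adjusted by Benjamini-Hochberg over 18150 genes. Levels are CPM on TMM-scaled library sizes. On simulated data for cone over rod at day 35 (17312 genes), 48% of 2-fold and 99% of 4-fold changes were recovered. The simulation gave all genes the same spread, so these shares do not hold for members with a wider spread, such as Vax2os, Snhg11 and Rmst. In the deposited TPM, AY036118 took 45.8% to 69.9% of each library but had 0 reads in the counts, while it overlaps Gm42418 on the other strand; TPM was therefore used only in an alternative, with limma 3.58.1 on log2(TPM + 1). Other alternatives were DESeq2 1.42.0, other size factors, no filter, fits of the compared libraries only, a replicate block, leaving out mitochondrial and ribosomal RNA genes, and leaving out each library. Levels per kilobase used the GENCODE M21 exon union, in which 47310 of 47729 gene identifiers were found; Rmst has another identifier there at the same position. Named genes were each member's overlapping and nearest protein-coding genes and, from each gene list, up to 4 called genes with the largest change at day 35 over primed cells and up to 2 between protocols. Genes alike in pattern were the top 3 by Pearson r over 11 group means of log2 CPM, among 11917 genes. In the promoter table, Rmst and Neat1 were not matched. Some genes that this rule names are not reported here.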

Additional observations from a re-analysis of the deposited data

Results flagged for a closer look

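For 3 members the difference between the cone and rod protocols was not the same at all days, by the edgeR F test on 4 degrees of freedom over the 5 days. Miat (adjusted p = 0.00662) was 0.41 ± 0.33 higher in cone cells at day 5 on the log2 scale, -1.58 ± 0.35 at day 12, 0.63 ± 0.35 at day 21 and -1.25 ± 0.38 at day 35. Neat1 (adjusted p = 0.0180) went from -0.37 ± 0.46 at day 0 to 2.48 ± 0.35 at day 12. Six3os1 (adjusted p = 0.0196) was -1.12 ± 0.18 at day 5 and 0.00 ± 0.18 at day 12, and its adjusted p rose to 0.0745 without cone day 5 replicate 1.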

How the results depend on the processing

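Of the alternatives, TPM with limma moved the most. It called 0 members in each cone over rod comparison, in rod primed over untreated and in the change with day. Of the 18150 genes it called 27 to 192, 46 and 48 there. Over primed cells it called 8 cone and 4 rod member changes (21 each in the counts), beside 710 to 1275 genes at each day. It turned 7 directions. These were Miat at cone day 5 (0.84), Six3os1 at cone day 35 (-0.89) and rod days 12, 21 and 35 (-0.28, -0.82 and -0.52), and Vax2os at cone day 35 (-0.16) and rod day 21 (-0.092). Adding 1 to TPM shrinks log2 changes at low TPM, and the median TPM was 0.147 for Neat1 and 0.184 for Miat. For cone over rod at day 0, DESeq2 called 2 members and the compared libraries only 4, against 1. The fit of the compared libraries also called more of all genes there, 2084 against 1320. At day 21, no filter on low counts gave 2 and DESeq2 gave 2, against 1, Neat1 being the added member. For rod primed over untreated, other size factors, DESeq2, the replicate block and leaving out mitochondrial and ribosomal RNA genes each gave 2, and the compared libraries only 3, against 1. Here too the fit of the compared libraries called more of all genes, 2912 against 1864. Leaving out each library gave 0 to 2 called members for cone over rod at day 0, 0 to 3 at day 21, 2 to 4 at day 35 and 0 to 1 for rod primed over untreated. Over all genes, the compared libraries only called 363 genes for cone over rod at day 12, against 1833. The cause of these changes was not tested.

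The replicate numbers were checked for pairing: libraries of the same number had a median correlation of deviations of 0.0164 (48 of 165 over 0.1). Libraries of different numbers had a median of -0.0114 (71 of 330 over 0.1). The highest values were 0.513 and 0.464. A median over all pairs of groups cannot show whether some groups were paired. The day 0 libraries numbered 1 had the lowest gene counts of their groups, 7511837, 7543927 and 7575026. With the replicate block, 22 member changes were called over primed cells in each protocol, against 21; it added Six3os1 at cone day 5 (0.47, edgeR adjusted p = 0.0486) and Rmst at rod day 12 (-1.07, adjusted p = 0.0422), and Six3os1 in rod primed over untreated (0.55, adjusted p = 0.0411). Depth limits Rmst and Vax2os most, with as few as 6 and 13 reads in a library.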
